A study of Mus musculus with 8 samples.

Results

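The genes described here are those of the Bach, small Maf and Nrf2 axis, which sets the response of a cell to oxidants and haem. They were 10 of the 21434 genes in the table and were chosen by name: Bach1, Bach2, Mafk, Mafg, Nfe2l2, Keap1, Hmox1, Nqo1, Gclc and Gclm. Their levels were measured by RNA-seq of homogenized pancreas from 8 untreated mice at 18 weeks of age. 4 mice were wild type for Bach2 (Bach2WT) and 4 were knockouts (Bach2KO), and mice 1 and 2 of each genotype were female and mice 3 and 4 male. The Bach2KO mice carried the Bach2tm1b(EUCOMM)Wtsi allele on a C57BL/6N background, in all cells of the animal. They had received neither a high-fat diet nor poly I:C, and each library came from 1 mouse. The question was which genes of the axis differ between Bach2KO and Bach2WT pancreas.

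Bach1 and Bach2 are transcription repressors of the cap 'n' collar family, and Nfe2l2 encodes Nrf2, an activator of the same family. All of them bind DNA as a pair with a small Maf protein such as Mafk or Mafg, at sites known as antioxidant response elements or Maf recognition elements, so that repressor and activator compete for the same genes. Keap1 holds Nrf2 in the cytoplasm and hands it over for degradation until oxidants modify it, and haem releases Bach1 from DNA. Hmox1 (haem oxygenase 1), Nqo1 (a quinone reductase), and Gclc and Gclm (the catalytic and modifier subunits of the enzyme that starts glutathione synthesis) are classic targets of this competition. Much of this control acts on protein stability and location, which RNA-seq does not measure.

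Promoters of 8 of the 10 genes were found in RefSeq (GRCm38.p6, 250 bases before to 50 after the start, 300 bases). The 4 that contain the core of the antioxidant response element, TGACNNNGC on either strand, are shown, with the match in capitals. The core was present in 12.4% of 32851 mouse promoters of this length. In the Mafk promoter the first capitals mark instead TGCTGA, the core of the Maf recognition element, which 19.5% of promoters hold. That motif also occurred in the Bach1 promoter, at position -212 from the start. TGANTCA, the core bound by AP-1 and by Bach2, was in 7.81% of promoters and in none of the 8. No match overlapped another. The Nfe2l2 promoter lies on the minus strand at chr2:75704614-75704913, with its match at position -240 from the start. That of Mafg lies on the minus strand at chr11:120633498-120633797, with the match at position -222. That of Mafk lies on the plus strand at chr5:139791286-139791585, with matches at position -13 and, for the Maf core, at -226. That of Gclm lies on the plus strand at chr3:122245307-122245606, with the match at position -134. Positions are those of the first base of a match as printed, counted from the start of the transcript. A match describes letters and does not show that a protein binds there.
Nfe2l2: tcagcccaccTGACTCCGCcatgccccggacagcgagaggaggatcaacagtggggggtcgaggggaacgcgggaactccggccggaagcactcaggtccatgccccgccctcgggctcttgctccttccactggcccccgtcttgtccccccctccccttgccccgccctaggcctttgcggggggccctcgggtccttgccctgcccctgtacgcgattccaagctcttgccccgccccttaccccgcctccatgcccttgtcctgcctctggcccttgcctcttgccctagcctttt
Mafg: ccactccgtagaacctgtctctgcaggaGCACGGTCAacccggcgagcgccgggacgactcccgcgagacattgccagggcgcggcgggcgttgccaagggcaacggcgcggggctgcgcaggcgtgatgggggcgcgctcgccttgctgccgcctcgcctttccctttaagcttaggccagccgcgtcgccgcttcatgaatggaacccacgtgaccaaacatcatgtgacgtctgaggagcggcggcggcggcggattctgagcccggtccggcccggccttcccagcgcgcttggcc
Mafk: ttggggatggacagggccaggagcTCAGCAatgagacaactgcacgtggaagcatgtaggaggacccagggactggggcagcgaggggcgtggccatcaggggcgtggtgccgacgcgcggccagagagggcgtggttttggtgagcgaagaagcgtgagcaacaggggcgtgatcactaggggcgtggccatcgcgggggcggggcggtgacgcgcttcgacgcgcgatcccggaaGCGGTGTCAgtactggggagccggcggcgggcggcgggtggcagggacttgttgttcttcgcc
Gclm: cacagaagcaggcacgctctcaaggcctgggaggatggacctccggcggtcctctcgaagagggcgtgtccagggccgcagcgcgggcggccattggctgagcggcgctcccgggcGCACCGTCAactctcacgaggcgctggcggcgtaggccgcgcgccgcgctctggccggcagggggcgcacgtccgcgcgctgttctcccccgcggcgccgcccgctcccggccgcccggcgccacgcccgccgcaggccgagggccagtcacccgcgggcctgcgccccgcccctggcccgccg

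The libraries held 72299745 to 172029360 counts on genes. Digestive enzyme genes took 79.8% to 81.7% of these in Bach2KO and 81.3% to 82.7% in Bach2WT mice. The tissue thus expressed the products of acinar cells as its label says. The summed level of 14 acinar markers was 529490 to 600178 CPM (counts scaled by library size and by the factors given next) in Bach2KO mice. It was 590376 to 790412 CPM in Bach2WT mice (exact permutation test, p = 0.0857), and all 14 were detected. Levels between genotypes are compared as CPM with edgeR's TMM factors, which were 1.05 to 1.18 in Bach2KO and 0.826 to 1.10 in Bach2WT libraries. CPM is divided by these factors, so mostly higher ones lower the values of Bach2KO. The acinar sums therefore differed more between the genotypes than the shares of counts above. Library Bach2KO 3 stood apart from the others on the first principal component (23.3% of the variance). Summed marker levels overlapped between the genotypes for islet, endothelial, stellate and fat cells, T cells, neutrophils and eosinophils (exact permutation tests, p = 0.0857 to 1). Sums for eosinophils (at most 0.229 CPM) and neutrophils (at most 0.918 CPM) were too near 0 to compare the genotypes. Of 7 T cell markers tested, 6 had a fold change above 0 and 1 below (median log2 value 0.91), and 0 had an unadjusted p under 0.05 (edgeR). Of 5 fat cell markers tested, 1 lay above 0 and 4 below (median -1.58), and of 4 B cell markers 0 and 4 (-1.45). Among 6 endothelial markers 5 lay above 0 and 1 below (0.50), and among 13 macrophage markers 9 and 4 (0.58). Islet and stellate markers had 6 above 0 and 2 below each (0.27 and 0.11). No marker of these lists passed adjustment (edgeR). Since bulk tissue was measured, fewer cells of a type and less RNA per cell cannot be told apart in any value given here.

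All genes of the axis had low FPKM values, in libraries where digestive enzyme genes took most of the counts. By rank of mean FPKM, Bach2 was above 22.2% of the genes in the table and Nqo1 above 48.2%. The others were above 63.0% (Bach1) to 85.0% (Keap1). Per gene length, Keap1 was the highest, with 0.856 ± 0.171 FPKM (mean ± SD over 8 libraries), above 85.0% of the genes in the table. It was followed by Mafk (0.720 ± 0.295 FPKM), Gclm (0.510 ± 0.0744 FPKM), Hmox1 (0.432 ± 0.177 FPKM), Nfe2l2 (0.415 ± 0.214 FPKM), Gclc (0.414 ± 0.224 FPKM), Mafg (0.257 ± 0.144 FPKM), Bach1 (0.161 ± 0.0825 FPKM), Nqo1 (0.0615 ± 0.0413 FPKM) and Bach2 (0.00916 ± 0.00646 FPKM). The order was set by mean log2(FPKM + 0.01), and the 9 pairs of neighbours were compared with an exact two-sided sign-flip permutation test over the 8 libraries, adjusted over the pairs. The last 3 steps passed it. Mafg was above Bach1 in 8 of 8 libraries, by 0.65 ± 0.48 on the log2 scale (SD; exact permutation test, adjusted p = 0.0352). Bach1 was above Nqo1 in 8 of 8 libraries, by 1.45 ± 0.88 (exact permutation test, adjusted p = 0.0352). Nqo1 was above Bach2 in 7 of 8 libraries, by 1.62 ± 1.16 (exact permutation test, adjusted p = 0.0469). The size of this step depends on the added 0.01, since the mean of Bach2 was below it and Nqo1 was 0 in Bach2WT 2. The 6 neighbouring pairs from Keap1 down to Mafg did not pass adjustment (exact permutation tests, adjusted p = 0.0879 to 0.906). Genes further apart in the order were not compared, so these values do not place Keap1 to Mafg at the same level.

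**Figure D1:**
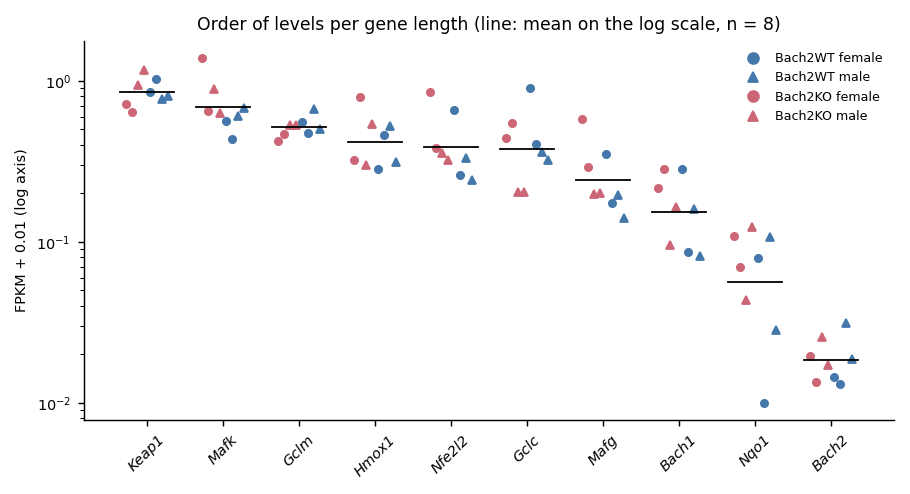
FPKM + 0.01 (log axis) of the 10 genes in each of 8 libraries, ordered by the mean on the log scale, which the black lines mark; circles are females, triangles males, blue Bach2WT and red Bach2KO. Keap1, Mafk and Gclm lead, and the levels drop stepwise from Mafg to Bach1, Nqo1 and Bach2.

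None of the 10 genes differed between Bach2KO and Bach2WT pancreas after adjustment for multiple testing. 9 of them passed the filter on low counts (all but Bach2) and entered edgeR's quasi-likelihood test, fitted on 12820 genes with Benjamini-Hochberg adjustment. 0 of 9 had an adjusted p under 0.05, where 0.0078% of all genes tested did (1 gene), and DESeq2, which called 75 genes, also called 0 of the 9. 1 of 9 had an unadjusted p under 0.05 (Mafk), against 7.46% of all genes. The CPM of 0 of 9 was without overlap between the genotypes, against 4.49% of all genes. The fold change was above 0 for 7 genes and below 0 for 2, with a median log2 value of 0.36, beside 0.05 and 54.7% above 0 for all genes tested. The 95% intervals were wide, from 0.349-fold to 8.02-fold at their outermost, both for Nqo1.

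**Figure D2:**
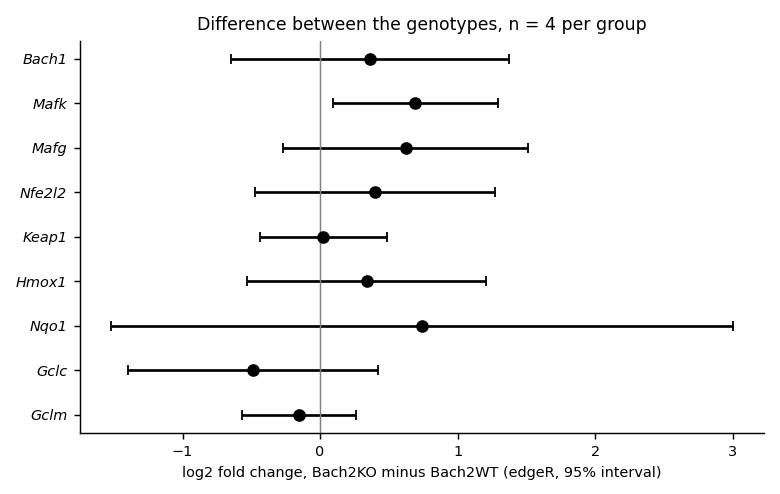
Log2 fold change (Bach2KO minus Bach2WT, edgeR) of the 9 genes tested, with 95% intervals, n = 4 mice per genotype. The interval of Mafk, 0.09 to 1.29, is the only one of these 9 that leaves out 0, before adjustment over all genes.

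Of the repressors, Bach2 is the knocked-out gene. It lies on chromosome 4 of GRCm39 from 32238804 to 32586108, and its 90 counts over all libraries were too few to check the genotype labels, with 0.0989, 0.0362, 0.159 and 0.0726 CPM in Bach2KO mice 1 to 4 and 0.0444, 0.0305, 0.216 and 0.0864 CPM in Bach2WT mice 1 to 4. The groups overlapped throughout. These counts cover the whole gene, so they do not separate the part that the allele lacks from the rest. B cells express Bach2, and RNA of their markers was scarce in this tissue. Their 9 markers, each detected in at least 1 library, summed to 0.0264 to 2.11 CPM in Bach2KO and 0.360 to 6.06 CPM in Bach2WT mice.

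Bach1, the widely expressed relative of Bach2, was more abundant. Its gene lies on chromosome 16 from 87495833 to 87530234, plus strand. It had 1.34, 1.74, 0.542 and 0.979 CPM in Bach2KO mice 1 to 4 and 1.72, 0.480, 0.933 and 0.446 CPM in Bach2WT mice 1 to 4. Both genotypes held low and high mice in the same range. Between genotypes the log2 fold change was 0.36 (SE 0.47, 95% interval -0.65 to 1.37; edgeR, adjusted p = 0.928). It ranged from 0.10 without Bach2KO 2 to 0.88 without Bach2WT 1.

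Mafk, a small Maf partner with no activation domain of its own, had the smallest p of the 9 genes. Its gene lies on chromosome 5 from 139777268 to 139788408, plus strand. It had 5.67, 2.57, 3.51 and 2.49 CPM in Bach2KO mice 1 to 4 and 2.21, 1.69, 2.33 and 2.62 CPM in Bach2WT mice 1 to 4. Bach2KO 1 was the highest library, and Bach2KO 2 and 4 lay below Bach2WT 4, so the groups overlapped. The log2 fold change was 0.69 (SE 0.28, 95% interval 0.09 to 1.29), and the genotypes differed at an unadjusted p of 0.0271 that did not hold after adjustment (edgeR, adjusted p = 0.635). This p ranked 547 among the 12820 genes. Without Bach2KO 1 the log2 fold change was 0.37. Mafk shares 169 bases with Tmem184a on the other strand, where reads of the genes cannot be told apart if they were counted without strand. Tmem184a itself had 1381 to 3292 counts per library and a log2 fold change of 0.02 (SE 0.15; edgeR, adjusted p = 0.988).

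Mafg, the second small Maf partner, lies on chromosome 11 from 120515943 to 120524426, minus strand. It had 3.37, 1.64, 1.07 and 1.10 CPM in Bach2KO mice 1 to 4 and 1.97, 0.930, 1.05 and 0.734 CPM in Bach2WT mice 1 to 4. Mouse 1 was the highest of both genotypes. Its log2 fold change was 0.62 (SE 0.41, 95% interval -0.27 to 1.51; edgeR, adjusted p = 0.794), from 0.12 without Bach2KO 1 to 0.99 without Bach2WT 1. Mafg shares 124 bases with Sirt7 on the same strand, a gene for a nuclear deacylase, which had a log2 fold change of 0.54 (SE 0.22; edgeR, unadjusted p = 0.0306, adjusted p = 0.641).

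Nfe2l2 lies on chromosome 2 from 75505857 to 75534985, minus strand. It had 3.35, 1.46, 1.33 and 1.22 CPM in Bach2KO mice 1 to 4 and 2.52, 0.968, 1.23 and 0.893 CPM in Bach2WT mice 1 to 4. As for Mafg, mouse 1 stood above the rest in both genotypes, and the other 6 mice had 0.893 to 1.46 CPM. A log2 fold change of 0.40 was obtained (SE 0.40, 95% interval -0.47 to 1.27; edgeR, adjusted p = 0.893). It moved most with the mice numbered 1, being -0.07 without Bach2KO 1 and 0.84 without Bach2WT 1.

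Keap1, the inhibitor of Nrf2, had close means, 4.14 ± 1.10 CPM in Bach2KO and 4.07 ± 0.542 CPM in Bach2WT mice (SD, n = 4 each). Its gene lies on chromosome 9 from 21141026 to 21150657, minus strand. The libraries had 3.52, 3.04, 4.45 and 5.53 CPM in Bach2KO mice 1 to 4 and 4.08, 4.83, 3.61 and 3.77 CPM in Bach2WT mice 1 to 4. Bach2KO females were the lowest libraries and Bach2KO 4 was the highest, with the Bach2WT mice in between. Its log2 fold change was 0.02 (SE 0.21, 95% interval -0.44 to 0.48; edgeR, adjusted p = 0.991), an interval of 0.739-fold to 1.40-fold, and its sign changed with the setting.

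Hmox1, the haem-degrading enzyme that Bach1 represses, lies on chromosome 8 from 75820249 to 75827217, plus strand. It had 0.575, 1.43, 0.515 and 0.954 CPM in Bach2KO mice 1 to 4 and 0.489, 0.800, 0.905 and 0.533 CPM in Bach2WT mice 1 to 4. The genotypes overlapped, with Bach2KO 2 above the rest. Its log2 fold change was 0.34 (SE 0.40, 95% interval -0.53 to 1.21; edgeR, adjusted p = 0.923), and it was -0.00096 without Bach2KO 2. Macrophages are a main source of Hmox1 in many tissues. Their 14 markers, each detected in at least 1 library, summed to 22.4 to 31.6 CPM in Bach2KO and 15.8 to 30.4 CPM in Bach2WT mice. Across the 8 libraries Hmox1 and the macrophage score had r = -0.34 (exact permutation test, p = 0.404, adjusted p = 0.766) and rho = -0.29 (exact permutation test, p = 0.501, adjusted p = 0.894). The 7 red blood cell markers, a sign of blood left in the tissue, summed to 55.0 to 209.7 CPM in Bach2KO and 32.0 to 259.7 CPM in Bach2WT mice, with r = -0.17 to Hmox1 (exact permutation test, p = 0.693, adjusted p = 0.866) and rho = -0.10 (exact permutation test, p = 0.840). Without Bach2KO 2 and 4, the mice farthest from the median of Hmox1, r was -0.51 to the macrophage and -0.25 to the red blood cell score.

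Nqo1, on chromosome 8 from 108114857 to 108129838 on the minus strand, was barely expressed. It had 26, 8, 4 and 35 counts (0.161, 0.0966, 0.0528 and 0.181 CPM) in Bach2KO mice 1 to 4 and 10, 0, 22 and 2 counts (0.111, 0, 0.153 and 0.0288 CPM) in Bach2WT mice 1 to 4. The count of 0 in Bach2WT 2 allows up to 3 counts, or 0.0229 CPM, by counting error alone. Nqo1 had the widest interval of the 9 genes, and its log2 fold change was 0.74 (SE 1.05, 95% interval -1.52 to 3.00; edgeR, adjusted p = 0.933). It ranged from 0.32 without Bach2WT 2 to 1.43 without Bach2WT 3. The 10 duct cell markers, all detected, summed to 87.0 to 136.7 CPM in Bach2KO and 109.5 to 155.4 CPM in Bach2WT mice. Their score had r = 0.22 to Nqo1 (exact permutation test, p = 0.602, adjusted p = 0.860) and rho = -0.02 (exact permutation test, p = 0.977), and r was -0.71 without Bach2WT 2 and 4.

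Gclc and Gclm, whose products form 1 enzyme, were the 2 genes with a fold change below 0. Gclc lies on chromosome 9 from 77661817 to 77701767, plus strand. It had 1.72, 2.10, 0.740 and 0.752 CPM in Bach2KO mice 1 to 4 and 3.42, 1.51, 1.34 and 1.18 CPM in Bach2WT mice 1 to 4. Bach2WT 1 was far above the rest, and the Bach2KO males were the lowest. The log2 fold change was -0.49 (SE 0.42, 95% interval -1.40 to 0.42; edgeR, adjusted p = 0.857), and it was -0.02 without Bach2WT 1.

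Gclm, on chromosome 3 from 122039206 to 122064381 on the plus strand, varied less between mice than Gclc. It had 2.74, 3.00, 3.33 and 3.34 CPM in Bach2KO mice 1 to 4 and 3.53, 2.96, 4.19 and 3.12 CPM in Bach2WT mice 1 to 4. Its coefficient of variation was 9.39% in Bach2KO and 15.9% in Bach2WT mice, against 52.0% and 56.2% for Gclc. The log2 fold change was -0.16 (SE 0.19, 95% interval -0.57 to 0.26; edgeR, adjusted p = 0.925).

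**Figure D3:**
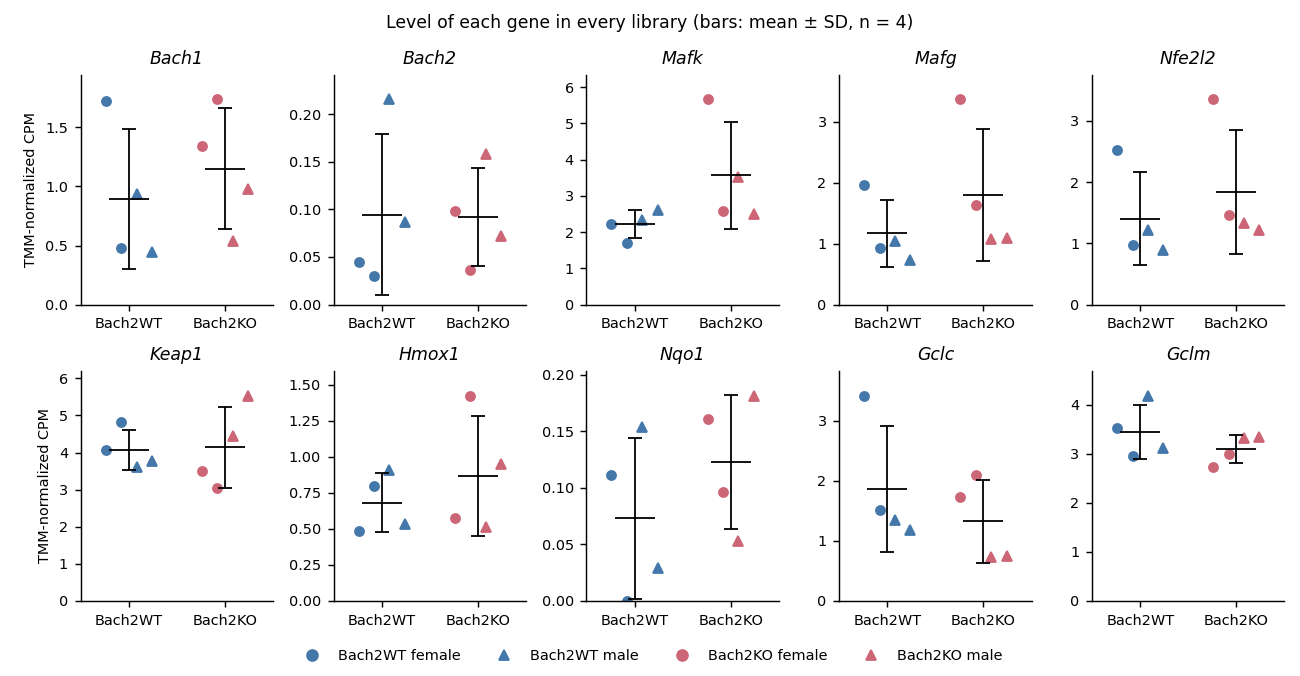
CPM of the 10 genes in each library, on axes that start at 0 and differ between panels, with mean ± SD (n = 4 per genotype); circles are females and triangles males. The genotypes overlap in all 10 panels, and 1 female of each genotype lies high for Nfe2l2 and Mafg.

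The balance between members within a library, which does not depend on scaling between libraries, was compared next. The log2 ratio of Nfe2l2 to Keap1 counts was -1.26 ± 0.92 in Bach2KO and -1.66 ± 0.72 in Bach2WT mice (SD, n = 4 each; exact permutation test, p = 0.571). For the activator Nfe2l2 over the repressor Bach1 it was 0.67 ± 0.77 and 0.74 ± 0.31 (exact permutation test, p = 0.943). For Gclc over Gclm it was -1.38 ± 0.91 and -1.02 ± 0.70 (exact permutation test, p = 0.514). For Mafg over Mafk it was -1.073 ± 0.49 and -1.003 ± 0.69 (exact permutation test, p = 0.943). For Hmox1 over Nqo1 it was 2.85 ± 0.91 and 3.51 ± 1.40, with Nqo1 at its floor in 1 library (exact permutation test, p = 0.429). None of the 5 ratios passed adjustment, and all adjusted p-values were 0.943 (exact permutation tests). With 0.0286 as the smallest possible p, a single ratio could not have passed adjustment over 5, so this does not show equal ratios.

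Sex was the other labelled factor, and 3 of these genes were lower in males before adjustment. In a model with genotype and sex, 0 of 9 genes had an adjusted p under 0.05 (edgeR), against 0.0312% of all genes (4 genes). 3 of 9 had an unadjusted p under 0.05, against 5.29% of all genes, and all 3 were lower in males, where 3.36% of all genes were lower. These were Gclc, Mafg and Nfe2l2. Gclc was the single member without overlap between the sexes. It had 1.51 to 3.42 CPM in the 4 females (mean 2.19 ± 0.857, SD) and 0.740 to 1.34 CPM in the 4 males (mean 1.00 ± 0.306), and 1.97% of all genes lay without overlap in this direction. Its log2 fold change, male minus female, was -1.16 (SE 0.30, 95% interval -1.80 to -0.51; edgeR, unadjusted p = 0.00197, adjusted p = 0.890). Leaving out 1 mouse at a time gave -1.39 (without Bach2WT 2) to -0.94 (without Bach2WT 1). Without the filter on low counts the adjusted p was 0.0435 (edgeR). In that setting more genes were called in general, 73 rather than 1 between the genotypes. The count of all genes called between the sexes there is not given here.

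Mafg differed by -0.95 (SE 0.34; edgeR, unadjusted p = 0.0147, adjusted p = 0.890) and Nfe2l2 by -0.82 (SE 0.35; unadjusted p = 0.0379, adjusted p = 0.890) between males and females. For Mafg the unadjusted p was above 0.05 without either female numbered 1, at -0.65 without Bach2KO 1 (edgeR, unadjusted p = 0.0829) and -0.78 without Bach2WT 1 (unadjusted p = 0.0680). For Nfe2l2 it was above 0.05 without any 1 of 5 mice. The log2 value was -0.51 without Bach2KO 1 (edgeR, unadjusted p = 0.192) and -0.53 without Bach2WT 1 (unadjusted p = 0.198). It was -0.80, -0.77 and -0.76 without the males Bach2KO 3, Bach2KO 4 and Bach2WT 4 (edgeR, unadjusted p = 0.0693, 0.0888 and 0.0807). The value for Bach1 was -0.83 (SE 0.43; edgeR, unadjusted p = 0.0757, adjusted p = 0.890), and -0.44 without Bach2WT 1 (unadjusted p = 0.378). That for Gclm was 0.20 (SE 0.19; edgeR, unadjusted p = 0.313).

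The difference between the genotypes was compared between the sexes with 2 mice per sex and genotype. 0 of 9 genes passed adjustment for the interaction (edgeR and DESeq2 alike), as did 0% of all genes with edgeR. 1 of 9 had an unadjusted p under 0.05, against 6.14% of all genes. This was Keap1. Both Bach2KO females (3.52 and 3.04 CPM) lay below both Bach2WT females (4.08 and 4.83 CPM), and both Bach2KO males (4.45 and 5.53 CPM) above both Bach2WT males (3.61 and 3.77 CPM). The log2 fold change was -0.44 in females and 0.44 in males, a difference of 0.88 (SE 0.36; edgeR, unadjusted p = 0.0318, adjusted p = 0.807). Mafk had a log2 fold change of 1.08 in females and 0.28 in males, a difference of -0.81 (SE 0.54; edgeR, unadjusted p = 0.159, adjusted p = 0.897).

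Across the 8 libraries, Nfe2l2 and Mafg ran closest together of the 36 pairs among the 9 genes (Pearson r of log2 CPM 0.97, a description over libraries that share 2 genotypes, 2 sexes and differing depths). Bach1 followed Mafg (r = 0.78) and Nfe2l2 (r = 0.73). Keap1 and Gclc ran most against each other (r = -0.53). Gclc and its partner subunit Gclm had r = -0.08, 1 of the 10 relations for which a test was planned (exact permutation test, p = 0.851, adjusted p = 0.883), rho = -0.19 (exact permutation test, p = 0.665) and r = -0.38 without Bach2KO 3 and Bach2WT 1. None of the 10 passed adjustment (adjusted p = 0.647 to 0.883 for r and 0.894 to 0.977 for rho). Mafk and Mafg had r = 0.63 (exact permutation test, p = 0.0962, adjusted p = 0.647) and rho = 0.26 (exact permutation test, p = 0.536), and r was -0.36 without Bach2KO 1 and Bach2WT 2, so the relation rested on these. Nfe2l2 and its target Nqo1 had r = 0.57 (exact permutation test, p = 0.129, adjusted p = 0.647) and rho = 0.48 (exact permutation test, p = 0.243), with r = 0.66 without the mice numbered 1.

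**Figure D4:**
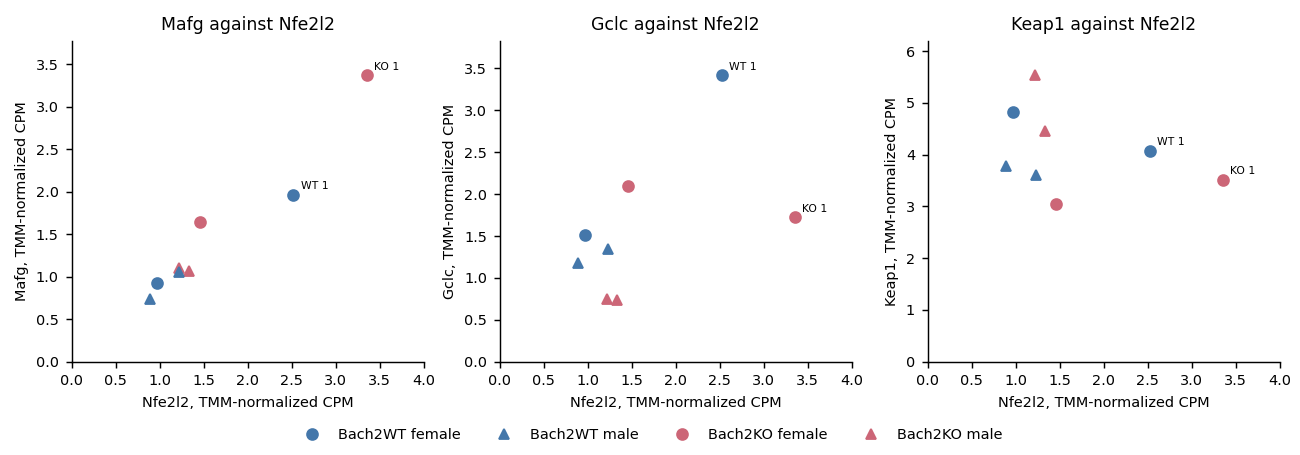
CPM of Mafg, Gclc and Keap1 (vertical axes) against CPM of Nfe2l2 (horizontal axis), 1 point per library, with Bach2KO 1 and Bach2WT 1 labelled. Mafg follows Nfe2l2, with both labelled libraries at the upper end, while Keap1 does not.

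Among all genes tested, those whose log2 CPM followed a member most closely over the 8 libraries were, as a description, Galnt15 and Cry2 for Nfe2l2 (r = 0.98 and 0.97) and Fbxo31 for Mafg (r = 0.98), followed by Nfe2l2 itself. They were Timm44 and Soat1 for Bach1 (r = 0.97 and 0.97), and Btbd7 and B4galt6 for Mafk (r = 0.98 and 0.97). For Keap1 they were Gja5 and Tnxb (r = 0.90 and 0.89). For the targets they were H3f3a-ps1 and Snrpb for Hmox1 (r = 0.96 and 0.96), Ifrd1 and Fastkd1 for Nqo1 (r = 0.96 and 0.96), D2hgdh and Ttc37 for Gclc (r = 0.95 and 0.93), and Ghr and Hagh for Gclm (r = 0.97 and 0.94). The only member that was among the closest pair of another was Nfe2l2.

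Other genes of the pathway, taken from 7 lists, had mostly lower means in Bach2KO pancreas. The lists were chosen with earlier results of these data known. Of 110 listed genes 100 were tested, and 32 had a fold change above 0 and 68 below, with a median log2 value of -0.14, against 0.05 for all genes. None passed adjustment with edgeR or with DESeq2 (lowest adjusted p = 0.138 with DESeq2). With edgeR, 16 had an unadjusted p under 0.05. 3 of these were higher in Bach2KO mice, where 3.9% of all genes were, and 13 lower, where 3.56% of all genes were. 10 genes lay without overlap below Bach2WT and 2 above, against 1.92% and 2.57% of all genes. On the same scale with TMM factors, acinar markers had fold changes below 0 as well (12 of 14, median log2 fold change -0.28). Without these factors, the share of counts on digestive enzyme genes was 79.8% to 81.7% in Bach2KO and 81.3% to 82.7% in Bach2WT mice. The part of the scaling and of acinar cells in the values of the lists was not tested.

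In the list of haem and iron handling, 15 of 16 tested genes had a fold change below 0, with a median of -0.26. 2 of them had an unadjusted p under 0.05 (edgeR) and 4 lay without overlap below Bach2WT, against 3.56% and 1.92% of all genes in this direction. These counts rest on few genes. Ftl1, the ferritin light chain that stores iron, had 105.5 to 139.0 CPM in Bach2KO and 122.3 to 212.0 CPM in Bach2WT mice (log2 fold change -0.59, SE 0.18; edgeR, unadjusted p = 0.00698, adjusted p = 0.531). Ferritin genes have processed copies in the genome, so its reads may be split. Urod, an enzyme of haem synthesis, had 7.44 to 8.84 CPM against 10.6 to 12.8 CPM, without overlap (-0.44, SE 0.15; edgeR, unadjusted p = 0.0121, adjusted p = 0.560). The exception was Ppox, also of haem synthesis, at 0.05 (SE 0.25; edgeR, adjusted p = 0.982).

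In the list of glutathione synthesis and use, 23 of 36 genes had a fold change below 0 (median -0.14). Of these 6, and of the others 1, had an unadjusted p under 0.05 (edgeR), against 3.56% of all genes lower and 3.9% higher. The glutathione transferases Gstt2 (-0.62, SE 0.18), Gstm5 (-0.54, SE 0.17) and Gsto1 (-0.43, SE 0.16) lay without overlap below Bach2WT, against 1.92% of all genes. Gstm4 (-0.91) and Gstp1 (-0.41), of the same enzyme class, and Gpx4 (-0.57), which reduces lipid peroxides, overlapped. Gstm and Gstp genes have near-identical relatives, so their counts are uncertain. Gpx2, a glutathione peroxidase of epithelia, was the gene with the opposite sign (1.42, SE 0.58), at 0.321 to 0.687 CPM in Bach2KO and 0.0915 to 0.374 CPM in Bach2WT mice. Adjusted p-values of these 7 genes were 0.513 to 0.663 (edgeR).

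In the list of thioredoxin and NADPH supply, 12 of 18 genes had a fold change below 0 (median -0.24). An unadjusted p under 0.05 (edgeR) was found for 4 of them, against 3.56% of all genes in this direction. The 4 were the peroxiredoxins Prdx5 (-0.51, SE 0.17) and Prdx4 (-0.40, SE 0.15), and the NADPH-producing enzymes G6pdx (-0.69, SE 0.25) and Pgd (-0.41, SE 0.19). Prdx4, a peroxiredoxin of the secretory pathway, had 116.3 to 151.0 CPM in Bach2KO and 156.2 to 190.4 CPM in Bach2WT mice. Txnrd3, a thioredoxin reductase, had the opposite sign (1.18, SE 0.40), at 0.596 to 1.38 against 0.328 to 0.722 CPM. Adjusted p-values of the 5 were 0.539 to 0.663 (edgeR).

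The remaining lists were small or balanced. All 4 of the superoxide dismutases and catalase had a fold change below 0 (median -0.34), Sod2 with -0.36 (SE 0.18) and Cat with -0.32 (SE 0.20; edgeR, adjusted p = 0.695 and 0.781). Of 14 genes of phase 2 detoxification and export, 8 were below 0 (median -0.05). The carbonyl reductase Cbr1 was among these (-0.54, SE 0.23; edgeR, adjusted p = 0.647). The transporter Abcc4 was without overlap above Bach2WT (1.69, SE 0.55; adjusted p = 0.532), at 0.316 to 0.779 against 0.0888 to 0.265 CPM. Of 9 genes of Nrf2 turnover 5 were below 0 (median -0.05), and the smallest p-values belonged to the ubiquitin ligase genes Fbxw11 (0.42, SE 0.22) and Syvn1 (0.21, SE 0.18; edgeR, adjusted p = 0.721 and 0.857). Of 3 tested partners, Nfe2l1, a relative of Nfe2l2, had 0.15 (SE 0.15) and Maff, another small Maf, 0.39 (SE 0.97; edgeR, adjusted p = 0.900 and 0.963). The value of Maff was -0.54 without Bach2KO 1 and 1.94 without Bach2WT 1.

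**Figure D5:**
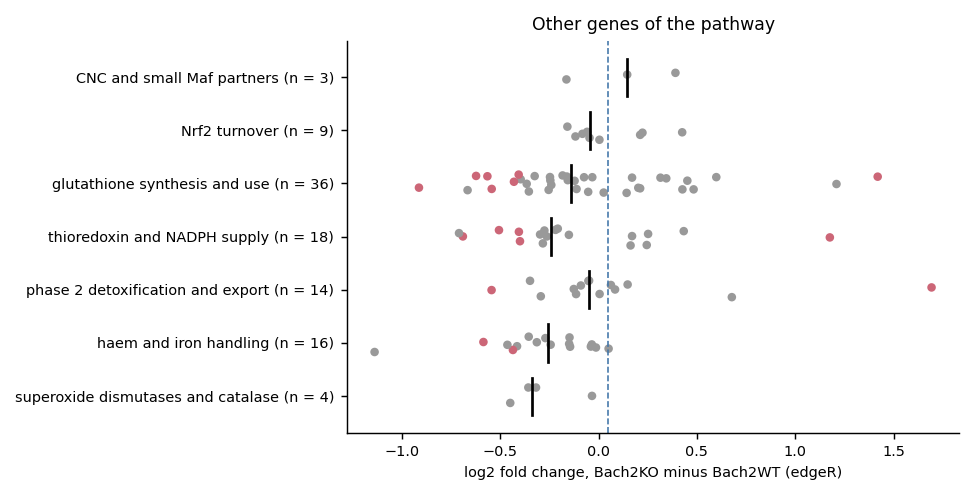
Log2 fold change (Bach2KO minus Bach2WT, edgeR) of each tested gene in 7 lists; black lines are list medians, red points have an unadjusted p under 0.05, vertical scatter within a list has no meaning and the dashed line is the median of all 12820 genes tested (0.05). 15 of 16 haem and iron genes and all 4 superoxide dismutase and catalase genes lie below 0.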

How the data were processed

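RNA was isolated from homogenized pancreas, and poly-A mRNA libraries were sequenced by a commercial provider as paired-end reads. The submitters' processing notes name fastp, HISAT2 2.2.1, featureCounts 2.0.6 and the build mm39. The authors deposited raw counts per gene and library, and FPKM values that the authors made per gene length on 1 scale for all libraries. The gene lengths were deposited by the authors as well, in bases (unit: other). The table also holds the authors' log2 fold changes and p-values, which were not used. Strand setting and the handling of read pairs are not given in the sources used here. Among counts of 1 to 19, even ones were more frequent than odd ones (27465 against 9812), as when both mates are counted. A count of 0 then allows 6 rather than 3 counts. Floors and intervals from counts cover counting error only. The 8 mice were taken as replicates of their labelled genotype.

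Genotypes were compared with edgeR 4.0.16 (TMM, filterByExpr, quasi-likelihood test, no covariate, R 4.3.3) on all genes with Benjamini-Hochberg adjustment at 0.05. The SE is the log2 fold change divided by the square root of F. Log2 CPM used a prior count of 2. For single values, exact two-sided permutation tests were run (scipy 1.17.1), for which 0.0286 is the smallest p with 4 against 4 mice. A marker score is the mean log2 CPM of the tested genes of a list. Named genes were the 10 members, list genes with an unadjusted p under 0.05 (or those with the smallest p, up to 2 a list) and the 2 genes most correlated with each member. Members and lists were chosen with earlier results of these data known. As alternatives, DESeq2 1.42.0 was run, digestive enzymes were left out of the library sizes, and RLE factors were used, as were no filter, at least 10 counts in every library, sex as covariate, a replicate block, length and GC corrections (loess, span 0.3), counts divided by 2, a pseudocount of 1 and fits without each mouse in turn. The procedure was also run on simulated data with fold changes larger than those of the members. Its outcome is not given here, and it does not measure the power for changes of their size. Promoters and motifs came from RefSeq, on another build than the gene coordinates, which are those of the table (GRCm39).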

Additional observations from a re-analysis of the deposited data

Results flagged for a closer look

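In groups of 4 mice, 20 groups of values (10 genes in 2 genotypes) were looked through for a single mouse far from the others, and 2 were found, where chance gives about 1 in 20. Nfe2l2 had 3.35 CPM in Bach2KO 1, and the gap to the nearest Bach2KO mouse was 0.886 of the range of the group. Gclc had 3.42 CPM in Bach2WT 1, with a gap of 0.853 of the range. Both gaps exceed the critical value of Dixon's test. Both are females with the number 1, and the difference of either gene between the genotypes moved most when these mice were left out.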

How the results depend on the processing

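In the genotype comparison, 0 of the members tested passed adjustment under any of 18 alternatives, 16 of which could be run for Nqo1. Mafk kept a fold change above 0 in all 18 (adjusted p = 0.457 to 0.939), and leaving out 1 mouse gave 0.37 to 0.83. The sign of Keap1 changed with sex as covariate (-0.000809), with the replicate block (-0.00429), with the length correction (-0.0342) and with the GC correction (-0.00330), and leaving out 1 mouse gave -0.15 to 0.14. Leaving out 1 mouse gave -0.067 to 0.84 for Nfe2l2 and -0.00096 to 0.51 for Hmox1. Without a filter on low counts, 1 of the members was called between the sexes (Gclc). How many of all genes were called between the sexes in this setting is not given here. Between the genotypes, 73 genes rather than 1 were called over the whole table without this filter. The cause was not tested. The median of the haem and iron list was -0.30 to -0.18 over its alternatives.

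With the replicate block 0 of the 9 genes tested were called. The mice numbered 1 deviated together (correlation 0.21) and each correlated best with the other. Those numbered 2, 3 and 4 did not (-0.03, -0.04 and -0.05), so the numbers were not taken to pair the mice. The block gave a log2 fold change of 1.36 for Nqo1 and changed no call on these genes. Of the genes with an unadjusted p under 0.05 over the whole table, 52.2% were higher in Bach2KO mice, but 41.6% after length correction, 42.5% after GC correction and 61.1% without a filter. Over all 8 libraries Bach2 had 90 and Nqo1 107 counts, which limits the precision of their values.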
